A study of Gallus gallus with 36 samples.

Results

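The retina of the chick was compared between circadian time (CT) 20, late in the subjective night, and CT8, the afternoon of the subjective day, 12 h earlier. The groups are the 3 retina libraries labelled CT20 and the 3 labelled CT8, 6 of the 36 libraries of a study that sequenced RNA of the pineal gland and the retina at 6 circadian times. Chickens from Hyline International, delivered when 1 day old, were entrained for 9 days to a cycle of 12 h light and 12 h dark. They were kept in constant darkness from day 10, when tissue was taken, so neither group saw light on the day of sampling. With CT8 12 h earlier, the CT20 tissue followed a longer time in darkness. Circadian time and time in darkness therefore cannot be told apart here. Each library held RNA of 1 whole retina, and no strain, genotype or sex is given. CT0 is the start of the subjective day, and only 1 cycle was sampled. Whether the 3 libraries of a time stem from different birds is not stated in the labels, so the p-values below reflect no more than the variation among these samples, part or all of which could be technical.

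Photoreceptors and other cells of the vertebrate retina hold circadian clocks of their own. In these clocks CLOCK or NPAS2, paired with ARNTL (BMAL1), switches on period and cryptochrome genes, whose proteins in turn repress that pair, while the nuclear receptors REV-ERB and ROR act on the ARNTL gene. In the retina such clocks are known to time melatonin synthesis by photoreceptors, visual sensitivity, the shedding of outer segments and the strength of rod and cone pathways.

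The values are estimated counts per Ensembl transcript. The 6 libraries held 5631675 to 8122277 counts each, and all 18 retina libraries held 4994388 to 8122277. The labelled tissue was checked against its markers over the 6 libraries: the cone phosphodiesterase gene PDE6C had 568 to 995 CPM (counts scaled per 1000000), the rod phosphodiesterase gene PDE6B 48.3 to 103 CPM, the horizontal cell factor gene PROX1 134 to 160 CPM and the Müller glia enzyme gene GLUL 3461 to 3994 CPM. Transcripts of the W chromosome, which only hens carry, summed to 113 to 149 CPM in all 18 retina libraries. No library of known sex stands beside this sum, and the sex of the birds was not tested. Levels below are CPM per library, differences are CT20 minus CT8 on the log2 scale ± SE (n = 3 libraries per time), and a transcript is called where the edgeR adjusted p is under 0.05 over all tested transcripts.

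Clock genes, photoreceptor transcription factors and a few photoreceptor genes were among the transcripts that differed between late night and afternoon. PER3, a period gene, was 2.85-fold higher at CT20. ARNTL was 2.61-fold higher at CT8, and so were the transcriptional repressor genes NFIL3 (3.16-fold) and BLIMP-1 (3.68-fold). RBP4, which the deposited annotation describes as purpurin, a retinol-binding protein secreted in the retina, was 2.49-fold higher at CT20. Of 14956 tested transcripts, 137 (0.916%) were called, 58 (0.388%) higher and 79 (0.528%) lower at CT20, and 1300 had an unadjusted p under 0.05. The median fold was 1.43 in either direction. At least 2-fold differences were seen in 8 of the higher and 9 of the lower transcripts. In each of the 137 called transcripts the 3 CT20 libraries lay beyond all 3 CT8 libraries, as they did in 14.6% of all tested transcripts. Leaving out any 1 of the 6 libraries lowered the number of calls. Each such fit also has a smaller group, a limit shared by the calls given below as lost without a library. The fewest calls were left without CT20 replicate 2 (32 higher and 39 lower), CT8 replicate 2 (32 and 49) and CT8 replicate 1 (44 and 48). The 6 libraries fitted alone gave 30 higher and 38 lower calls. In that fit 16 of the 42 called transcripts chosen by the naming rule were lost. Among them were those of BHLHE40, HLF, FBXL21 and CNGA3 and a less abundant transcript of PER3. The PER3 transcript with the 2.85-fold difference kept its call. DESeq2 called 124 higher and 147 lower.

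**Figure D1:**
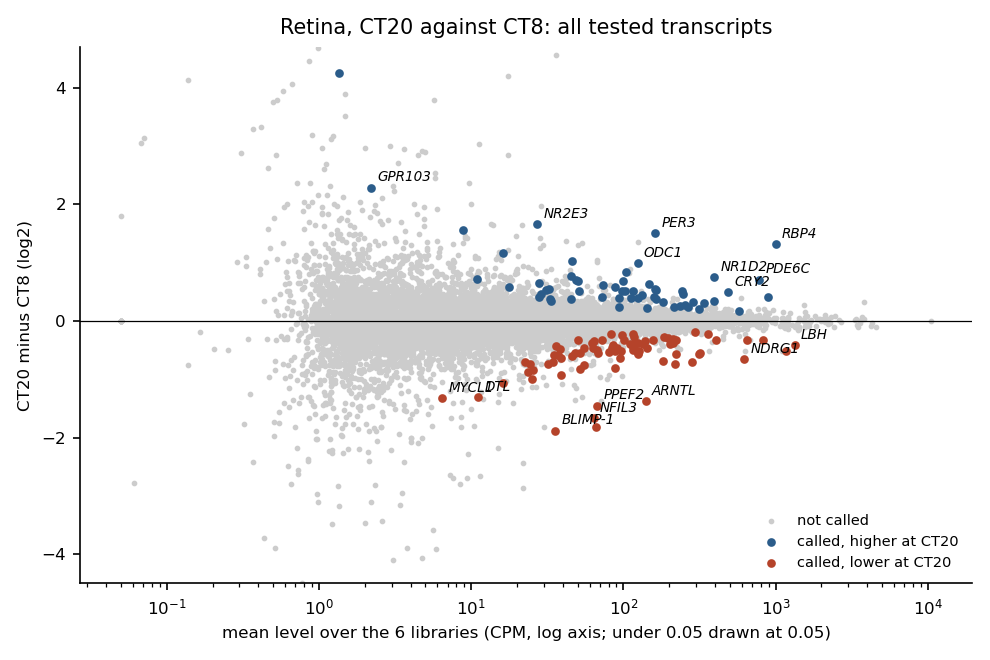
Difference between CT20 and CT8 (log2, vertical axis) against the mean level over the 6 retina libraries (CPM, log axis) for all tested transcripts; 107 transcripts beyond the drawn range are left out. Blue points are the 58 transcripts called higher at CT20 and red points the 79 called lower, and most of them lie within 1 log2 unit of 0.

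Among the clock activators, ARNTL was the 1 called member of 6 tested, against 0.528% of all tested transcripts called lower. Its transcript (ENSGALT00000032732, chromosome 5, 8501669 to 8522873) had 212, 212 and 184 CPM at CT8 and 84.5, 69.6 and 79.8 CPM at CT20. The groups lay far apart. ARNTL fell by 1.38 ± 0.09 (edgeR adjusted p = 7.9e-07). Its partner CLOCK had means of 78 CPM at CT8 and 71.4 CPM at CT20, a difference of -0.13 ± 0.08 that was not called. The CLOCK paralog NPAS2 (-0.26 ± 0.13), the ARNTL paralog ARNTL2 (-0.07 ± 0.10) and the receptor genes RORA (0.26 ± 0.07) and RORB (0.10 ± 0.07) were not called either. RORA passed the test only when CT20 replicate 1 was left out (edgeR adjusted p = 0.0317). NPAS2 and ARNTL2 had their highest means at CT12, 76.5 and 219 CPM, between the 2 times compared. The median difference of the 6 activators was -0.10, against 0.00 over all tested transcripts.

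The clock repressors moved in both directions, with 4 of 7 called higher at CT20 and 1 called lower, against 0.388% and 0.528% of all tested transcripts. PER3 (ENSGALT00000000797, chromosome 21) had 233, 276 and 208 CPM at CT20 and 84.7, 81.5 and 85.6 CPM at CT8. Every CT20 library was more than double the highest CT8 library, and PER3 rose by 1.51 ± 0.11 (edgeR adjusted p = 3.2e-06). A less abundant second PER3 transcript rose by 1.56 ± 0.25 (edgeR adjusted p = 0.00545, but 0.0553 when the 6 libraries were fitted alone). NR1D2, which encodes REV-ERB beta, a repressor of the ARNTL gene, had 483, 527 and 481 CPM at CT20 and 310, 307 and 268 CPM at CT8. NR1D2 was thus higher in all CT20 libraries and rose by 0.75 ± 0.07 (edgeR adjusted p = 4.8e-05).

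The cryptochrome genes CRY1 and CRY2, repressors of the CLOCK and ARNTL pair, went opposite ways. CRY2 had 558, 596 and 557 CPM at CT20 and 390, 409 and 415 CPM at CT8, with no overlap, and rose by 0.50 ± 0.04 (edgeR adjusted p = 1.5e-05). CRY1 (ENSGALT00000037715) had 136, 138 and 145 CPM at CT20 and 227, 227 and 219 CPM at CT8, again with no overlap, and fell by 0.68 ± 0.07 (edgeR adjusted p = 4.8e-05). Its other transcript fell by 0.52 ± 0.11 (edgeR adjusted p = 0.0382). BHLHE40, the DEC1 repressor gene, had 81.4, 100 and 85.2 CPM at CT20 against 54.4, 56.8 and 62.9 CPM at CT8 and rose by 0.62 ± 0.10 (edgeR adjusted p = 0.00698). Without CT20 replicate 2 the BHLHE40 call was lost (edgeR adjusted p = 0.0552), as it was with the 6 libraries alone (edgeR adjusted p = 0.0645).

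PER2 did not differ beyond its spread between these times. It had 203, 252 and 239 CPM at CT20 and 199, 229 and 224 CPM at CT8, groups that overlap, with a difference of 0.09 ± 0.09. Its highest mean over the 6 times was 333 CPM, at CT0, and its lowest 127 CPM, at CT16, so CT8 and CT20 fall on either side of the peak. CRY4, a cryptochrome gene of birds and fish, had a difference of -0.02 ± 0.15 and was not called. The median over the 7 tested repressors was 0.50.

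Among 10 tested clock output factors and kinases, NFIL3 and FBXL21 were called lower and HLF higher, against 0.528% and 0.388% of all tested transcripts. NFIL3, which encodes the D-box repressor E4BP4, had 93.4, 103 and 93.7 CPM at CT8 and 25, 30.6 and 36.2 CPM at CT20. The groups did not overlap and NFIL3 fell by 1.66 ± 0.12 (edgeR adjusted p = 2.2e-06). HLF, an activator that binds the same D-box elements, had 363, 404 and 349 CPM at CT20 and 308, 295 and 299 CPM at CT8. It rose by 0.31 ± 0.06 (edgeR adjusted p = 0.0247). The HLF call was lost without any 1 of CT20 replicates 1 and 2 and CT8 replicates 1, 2 and 3 (edgeR adjusted p from 0.0562 to 0.145). FBXL21, whose product marks cryptochromes with ubiquitin, fell by 0.54 ± 0.10, from 61.9, 68.2 and 54.1 CPM to 45.8, 40.5 and 40.5 CPM (edgeR adjusted p = 0.0104). Its call was lost without CT20 replicate 2 or 3 or CT8 replicate 2 (edgeR adjusted p from 0.0593 to 0.0687).

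The other members of that list were not called. They include the D-box activator gene TEF (0.04 ± 0.06), the casein kinase genes CSNK1D (-0.04 ± 0.06) and CSNK1E (0.93 ± 0.53), the kinase gene GSK3B (0.07 ± 0.07), the ubiquitin ligase gene BTRC (-0.02 ± 0.06), and the deubiquitinase gene USP2 (0.60 ± 0.19). The CSNK1E libraries spread from 8.25 to 28.7 CPM at CT8. With counts summed per gene USP2 was called (0.67, edgeR adjusted p = 0.024). The median of the list was 0.03.

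**Figure D2:**
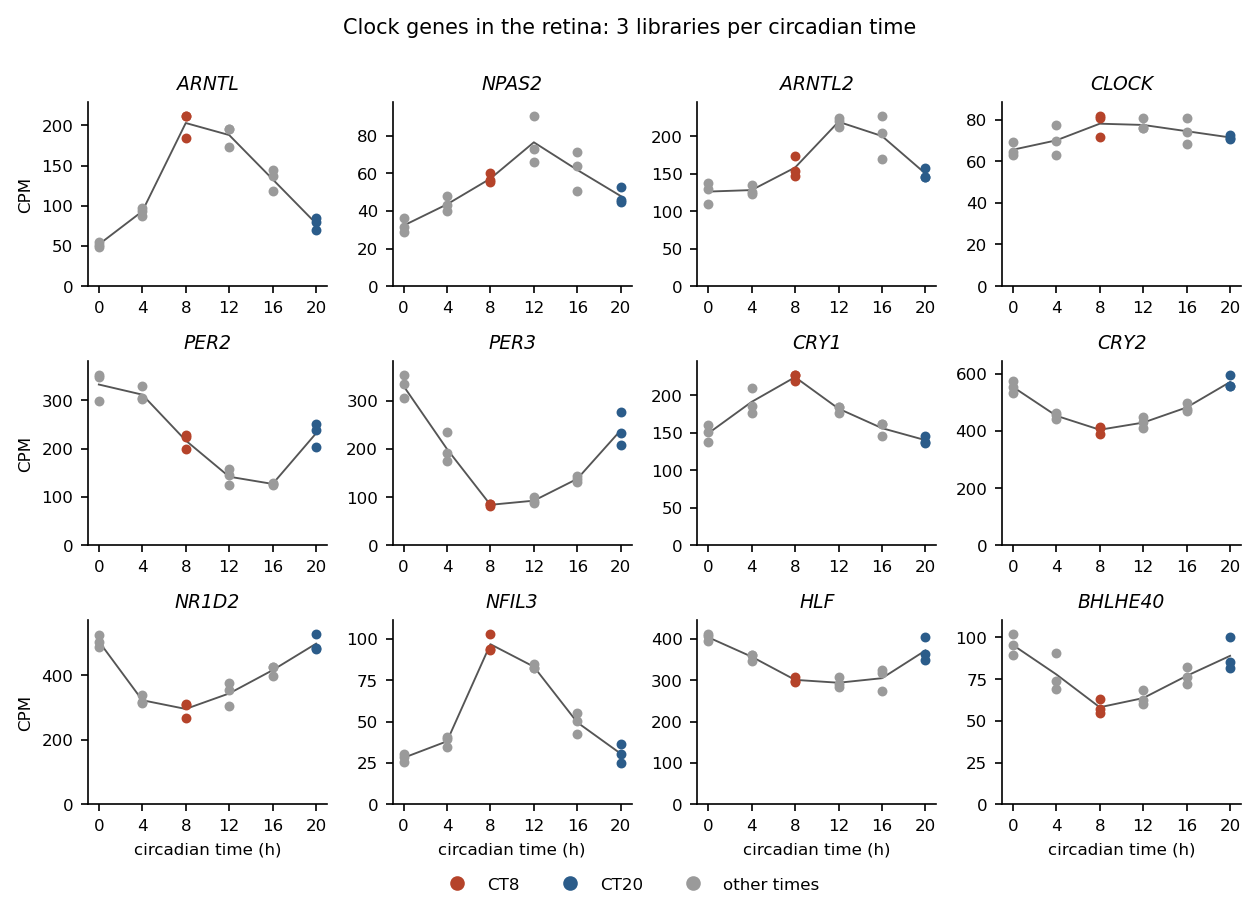
Levels of 12 clock genes in the retina (CPM, vertical axis from 0) by circadian time in hours; points are single libraries, 3 per time, and lines join the means. ARNTL, NFIL3 and CRY1 are lower at CT20 (blue) than at CT8 (red) and PER3, NR1D2 and CRY2 higher, while PER2 overlaps between these times.

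Melatonin is made from tryptophan by TPH1, DDC, AANAT and ASMT, and AANAT sets its daily timing. AANAT was the 1 called member of 13 tested melatonin genes, against 0.388% of all tested transcripts called higher. It had 191, 201 and 180 CPM at CT20 and 134, 127 and 129 CPM at CT8. The libraries of the 2 times were well apart, and AANAT rose by 0.55 ± 0.07, a 1.47-fold difference (edgeR adjusted p = 5.5e-04). TPH1 had 113, 84.5 and 75.5 CPM at CT20 and 68.8, 56.7 and 75.2 CPM at CT8, a difference of 0.44 ± 0.24 that was not called. The highest TPH1 mean, 149 CPM, lay at CT16. ASMT (0.15 ± 0.14) and DDC (0.14 ± 0.16) were not called. Neither were the melatonin receptor genes MEL1A (0.71 ± 0.25) and MEL1B (0.30 ± 0.41). TPH2 (0.15 ± 0.45), the cofactor enzyme genes GCH1 (-0.35 ± 0.27), PTS (-0.15 ± 0.14), SPR (-0.18 ± 0.14) and QDPR (-0.18 ± 0.21) and the amine oxidase genes MAOA (-0.67 ± 0.32) and MAOB (0.02 ± 0.48) were not called. MEL1A averaged 6.85 CPM at CT20 and 4.17 CPM at CT8, and MEL1B averaged 1.38 and 1.12 CPM. The median over the 13 members was 0.14.

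Among 13 tested transcription factor genes of photoreceptors, 2 were called higher and 2 lower, against 0.388% and 0.528% of all tested transcripts. BLIMP-1 (PRDM1), a repressor that in mice keeps young photoreceptors from becoming bipolar cells, had 55.3, 54.7 and 58.1 CPM at CT8 and 15.7, 14.6 and 15.4 CPM at CT20. The libraries of each time agreed closely, and BLIMP-1 fell by 1.88 ± 0.11 (edgeR adjusted p = 4.6e-07). NR2E3, a nuclear receptor that in mice represses cone genes in rods, had 43.5, 39.4 and 40.7 CPM at CT20 and 13.7, 9.31 and 15.9 CPM at CT8. All CT20 libraries were above all CT8 libraries, and NR2E3 rose by 1.66 ± 0.27 (edgeR adjusted p = 0.00519). ESRRB, an orphan nuclear receptor gene needed for rod survival in mice, had 17.8, 19 and 17.6 CPM at CT20 and 30.5, 29.1 and 37.9 CPM at CT8. ESRRB was lower in all CT20 libraries and fell by 0.84 ± 0.11 (edgeR adjusted p = 0.0011), though its call was lost when all 36 libraries (0.0937) or only the 6 (0.0516) were fitted.

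MEF2D, which in mice drives late photoreceptor genes, is named although the naming rule does not reach it. It had 104, 103 and 110 CPM at CT20 and 72.7, 79.8 and 88.3 CPM at CT8 and rose by 0.40 ± 0.09 (edgeR adjusted p = 0.0382). OTX2 (-0.06 ± 0.08), NEUROD1 (0.08 ± 0.11), THRB (0.20 ± 0.08) and RXRG (0.25 ± 0.08), which are factors of photoreceptor fate, were not called. The list median was 0.06.

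Of 10 tested genes of cone phototransduction, 3 were called higher at CT20 and none lower, against 0.388% of all tested transcripts called higher. PDE6C, the catalytic subunit of the cone phosphodiesterase that breaks down cyclic GMP, had 976, 995 and 923 CPM at CT20 and 603, 599 and 568 CPM at CT8. The groups did not overlap, and PDE6C rose by 0.71 ± 0.07 (edgeR adjusted p = 1.1e-04). CNGA3, the cyclic GMP-gated channel subunit of cones, had 177, 195 and 160 CPM at CT20 against 109, 106 and 131 CPM at CT8 and rose by 0.63 ± 0.11 (edgeR adjusted p = 0.00802). SLC24A2, the cone sodium, calcium and potassium exchanger, had 176, 195 and 185 CPM at CT20 against 136, 142 and 150 CPM at CT8 and rose by 0.38 ± 0.08 (edgeR adjusted p = 0.0257). The CNGA3 call was lost without CT20 replicate 2, CT8 replicate 1 or CT8 replicate 2 (edgeR adjusted p from 0.0513 to 0.0653). The SLC24A2 call was lost without CT20 replicate 2 or 3 or CT8 replicate 1 or 2 (edgeR adjusted p from 0.0784 to 0.152).

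Other cone genes were not called, among them the inhibitory phosphodiesterase subunit PDE6H (0.21 ± 0.05), the cone arrestin ARR3 (0.16 ± 0.07) and the channel subunit CNGB3 (0.26 ± 0.09). GNB3, the beta subunit of cone transducin, had means of 2178 CPM at CT20 and 2248 CPM at CT8, a difference of -0.05 ± 0.05. The list median was 0.27, and its differences ran from -0.51, which was not called, to 0.71. Of the 14 cone genes listed, OPN1LW, OPN1SW, GNAT2 and GNGT2 were not found by symbol, so median and sum do not cover the whole cascade. The summed level of the 10 cone genes was 6044 to 6231 CPM at CT20 and 5639 to 5742 CPM at CT8. These ranges do not overlap (exact two-sided permutation p = 0.1, the smallest that 3 against 3 libraries allow). This sum includes the called genes PDE6C, CNGA3 and SLC24A2, so it is no separate result, and the uncalled cone genes were not summed apart. The summed levels of bipolar cell genes (2437 to 2464 against 2359 to 2394 CPM), amacrine and horizontal cell genes (4386 to 4458 against 4237 to 4305 CPM) and ganglion cell genes (3339 to 3665 against 3213 to 3324 CPM) were also higher in all CT20 libraries, and their part in the cone result was not tested. In bulk tissue fewer cells of a type and less RNA per cell cannot be told apart.

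Of 14 tested rod phototransduction genes, 2 were called, both lower at CT20, against 0.528% of all tested transcripts. GNB1, the beta subunit of rod transducin and of other G proteins, had 991, 948 and 944 CPM at CT20 and 1397, 1265 and 1480 CPM at CT8 and fell by 0.52 ± 0.10 (edgeR adjusted p = 0.017). GUCA1B, a calcium sensor that regulates the photoreceptor guanylate cyclase, had 189, 188 and 188 CPM at CT20 and 225, 239 and 232 CPM at CT8 and fell by 0.30 ± 0.06 (edgeR adjusted p = 0.0138). Both pairs of groups were apart. The GNB1 call was lost without CT20 replicate 2 or 3 or CT8 replicate 1 or 3 (edgeR adjusted p from 0.0675 to 0.0907). The GUCA1B call was lost without CT20 replicate 2 or 3 or CT8 replicate 2 (edgeR adjusted p from 0.0557 to 0.0738) and when all 36 libraries were fitted (edgeR adjusted p = 0.597).

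The rod phosphodiesterase genes PDE6B (0.62 ± 0.24) and PDE6G (1.31 ± 0.30) and the rod channel genes CNGA1 (-0.74 ± 0.23) and CNGB1 (-0.45 ± 0.11) had libraries that did not overlap but were not called. Of the 21 rod genes listed, GNAT1, GNGT1, PDE6A, GRK1, RCVRN, GUCY2D and ROM1 were not found by symbol. Median and sum therefore do not cover the whole rod cascade. The list median was -0.22. The summed level of the 14 rod genes was 4643 to 5090 CPM at CT20 and 5060 to 6260 CPM at CT8, which overlap (exact two-sided permutation p = 0.2).

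Among 11 tested calcium and potassium channel genes of photoreceptors, CACNA2D4 was called lower, against 0.528% of all tested transcripts. It encodes the auxiliary subunit of the calcium channel at the photoreceptor ribbon synapse, and had 216, 197 and 233 CPM at CT20 and 354, 346 and 353 CPM at CT8. The groups were well apart, and CACNA2D4 fell by 0.71 ± 0.07 (edgeR adjusted p = 3.7e-05). The pore subunit gene CACNA1D differed by -0.08 ± 0.05 and was not called. Of 17 tested synapse genes, 2 were called higher, against 0.388% of all tested transcripts. CPLX4, a complexin of ribbon synapses, had 117, 130 and 115 CPM at CT20 and 86.3, 81.2 and 83.9 CPM at CT8 and rose by 0.52 ± 0.06 (edgeR adjusted p = 1.6e-04). With all 36 libraries in the fit the CPLX4 call was lost (edgeR adjusted p = 0.0999). CTBP2, the gene that also encodes the ribbon protein RIBEYE, had 123, 133 and 128 CPM at CT20 and 95, 94.3 and 103 CPM at CT8 and rose by 0.39 ± 0.06 (edgeR adjusted p = 0.00379). The medians were 0.05 for the channels and 0.02 for the synapse genes.

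RBP4 (ENSGALT00000024805, chromosome Z, 52408730 to 52414029) had 1461, 1527 and 1298 CPM at CT20 and 554, 530 and 637 CPM at CT8. All CT20 libraries lay far above all CT8 libraries, and RBP4 rose by 1.32 ± 0.15 (edgeR adjusted p = 3.0e-04). Its means were higher still at CT0 (3701 CPM) and CT4 (2661 CPM) and lowest at CT12 (242 CPM). PPEF2, a calcium-binding phosphatase of photoreceptors, had 37.4, 33.4 and 37.4 CPM at CT20 and 109, 76.6 and 110 CPM at CT8. PPEF2 was lower in all CT20 libraries and fell by 1.45 ± 0.16 (edgeR adjusted p = 1.4e-04).

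**Figure D3:**
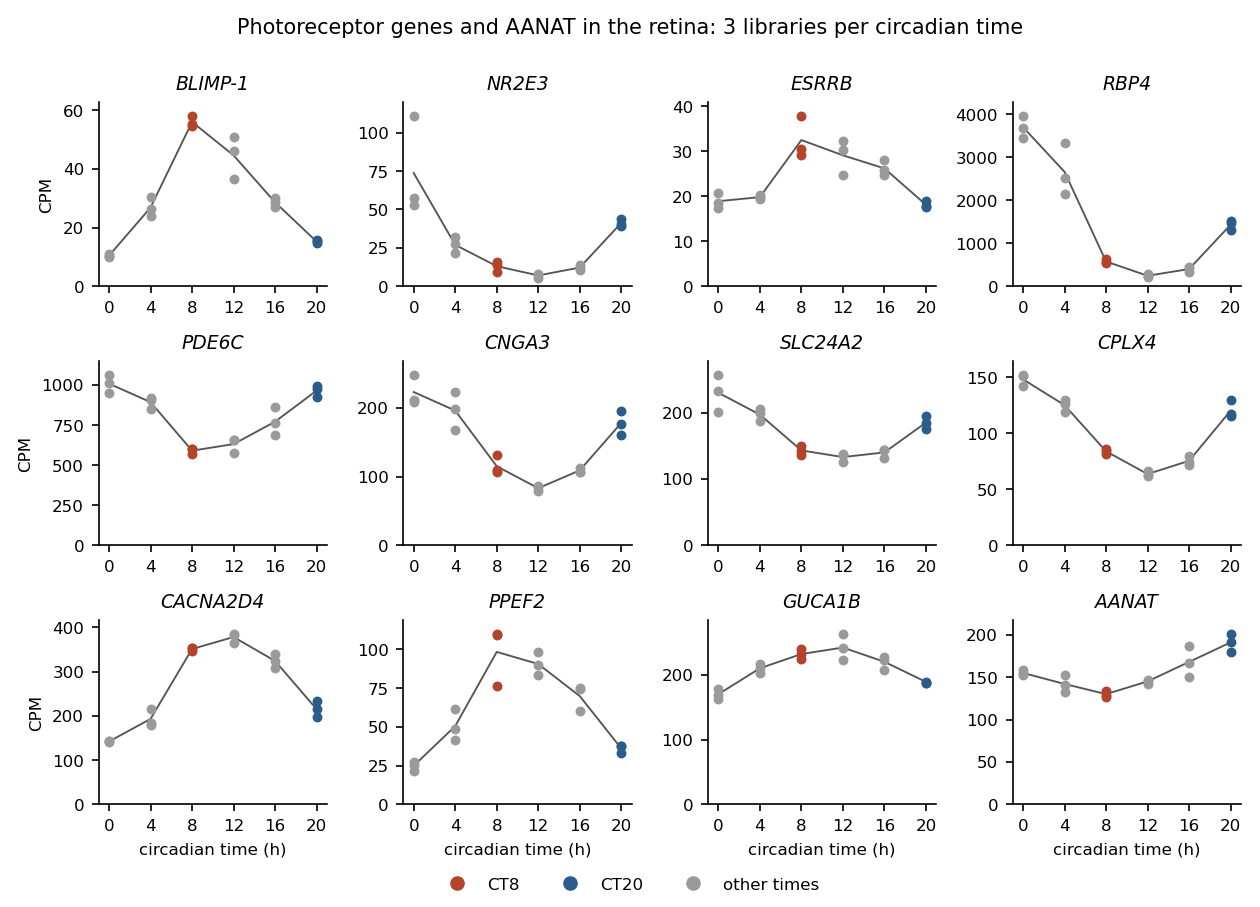
Levels of 11 photoreceptor genes and AANAT in the retina (CPM, vertical axis from 0) by circadian time in hours; points are single libraries, 3 per time, and lines join the means. BLIMP-1, ESRRB, CACNA2D4, PPEF2 and GUCA1B are lower at CT20 (blue) than at CT8 (red), and the other 7 are higher.

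Outside these lists, the transcript with the smallest p had no gene name (ENSGALT00000001533, chromosome 28, 1760324 to 1764185). It had 29.1, 28 and 31 CPM at CT20 and 96.3, 112 and 101 CPM at CT8, with a wide gap between the groups, and fell by 1.81 ± 0.09 (edgeR adjusted p = 9.0e-08). ODC1, the first enzyme of polyamine synthesis, had 183, 162 and 148 CPM at CT20 and 86.9, 83.9 and 78.3 CPM at CT8 in its more counted transcript. It rose by 0.99 ± 0.08 (edgeR adjusted p = 6.2e-06). Its other transcript rose by 0.84 ± 0.18 (edgeR adjusted p = 0.0355), a call lost without any 1 of CT20 replicates 2 and 3 and CT8 replicates 1, 2 and 3 (edgeR adjusted p from 0.0786 to 0.195).

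NDRG1, a stress-induced gene, had 506, 468 and 477 CPM at CT20, and was 1.57-fold higher at CT8, where it reached 770 CPM. CITED3, a partner of the CBP and p300 coactivators, had 252, 251 and 258 CPM at CT20 and 373, 357 and 392 CPM at CT8. In both genes the replicates were tight and the groups apart. NDRG1 fell by 0.65 ± 0.06 (edgeR adjusted p = 1.5e-05) and CITED3 fell by 0.56 ± 0.05 (edgeR adjusted p = 1.2e-05). G0S2, an inhibitor of triglyceride breakdown and the 1 called gene of 22 tested fuel genes, fell by 0.74 ± 0.11, from 36.7, 45.4 and 37.4 CPM to 23.9, 25.5 and 22 CPM (edgeR adjusted p = 0.00173, but 0.0527 with the 6 libraries alone). ACSL3, which activates fatty acids, was the 1 called gene of 23 tested lipid synthesis genes and fell by 0.33 ± 0.04 (edgeR adjusted p = 8.1e-04). With 0.528% of all tested transcripts called lower, 1 call in lists of this size is not a result about the lists.

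The remaining large falls were those of the ubiquitin ligase adaptor DTL (15.8 to 6.36 CPM, -1.31 ± 0.17), the transcription factor MYCL1 (9.15 to 3.68 CPM, -1.32 ± 0.29), the deubiquitinase OTUD1 (33.3 to 16.6 CPM, -1.0 ± 0.15), and 2 transcripts each of PTPDC1 (-0.92 ± 0.16 and -1.06 ± 0.21) and SAMD11 (-0.82 ± 0.16 and -0.88 ± 0.19). Large rises were those of the calcium channel gene ORAI2 (33.1 to 56.7 CPM, 0.78 ± 0.08) and the lipase family gene PNPLA1 (30.1 to 61.5 CPM, 1.03 ± 0.14). The DTL, ORAI2 and PNPLA1 calls held in every alternative and the OTUD1 call was lost only with the 6 libraries alone (edgeR adjusted p = 0.0766). The less counted PTPDC1 transcript and MYCL1 lost their calls without any 1 of the 6 libraries (edgeR adjusted p from 0.0567 to 0.118 and from 0.0776 to 0.232). The more counted PTPDC1 transcript lost its call without CT20 replicate 1 (edgeR adjusted p = 0.0535) or CT8 replicate 2 (edgeR adjusted p = 0.0561). SAMD11, named in mice as a part of a photoreceptor repressor complex, lost its calls without any 1 of CT20 replicates 2 and 3 and CT8 replicates 1 and 3 (edgeR adjusted p from 0.0894 to 0.181), and its less counted transcript also without CT20 replicate 1 (edgeR adjusted p = 0.149).

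A further 3 transcripts that rose rest on few counts or on the split of counts between transcripts. The RFamide peptide receptor gene GPR103 had 4.23, 2.34 and 4.47 CPM at CT20 and 0.891, 0.482 and 0.839 CPM at CT8 (2.29 ± 0.47, edgeR adjusted p = 0.0291), and the call was lost without any 1 of 5 libraries, all but CT20 replicate 2 (edgeR adjusted p from 0.0949 to 0.164). For the haem lyase gene HCCS the called transcript had 25.4, 21.5 and 20.7 CPM at CT20 and 7.49, 8.46 and 13.9 CPM at CT8 (1.17 ± 0.18, edgeR adjusted p = 0.00337). With counts summed over its transcripts the HCCS difference was -0.05, and the call was lost with all 36 libraries (edgeR adjusted p = 0.0901) or only the 6 (0.136) in the fit. For C18ORF22 the called transcript had 2.93, 2.03 and 2.85 CPM at CT20 and at most 0.292 CPM at CT8 (edgeR adjusted p = 0.0382), and the sum over its transcripts differed by -0.20. The C18ORF22 call was lost without any 1 of CT20 replicates 1, 2 and 3 and CT8 replicates 2 and 3 (edgeR adjusted p from 0.0932 to 0.177).

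No member was called in 35 of the 47 gene lists, which at a share of 0.916% over all tested transcripts is no result about their members. With their tested members and median differences, these included dopamine (8, 0.07), cyclic AMP signalling (30, -0.02), non-visual opsins (7, 0.03), the visual cycle and pigment epithelium (21, -0.34), bipolar cells (14, 0.01), amacrine and horizontal cells (24, 0.03), ganglion cells (18, 0.02) and Müller glia (15, -0.01). Immediate early genes (22, 0.04), heat shock (27, 0.00), the unfolded protein response (25, -0.02), cholesterol synthesis (20, 0.03), glycolysis (24, -0.06), ribosomal proteins (67, 0.04) and the proteasome (35, -0.01) had none either. On the Z chromosome, counted with 1 transcript per symbol, 8 of 573 tested were called, 4 in each direction. The shares over all tested transcripts were 0.388% higher and 0.528% lower, and so few calls are no result about the chromosome. The other cell lists do not mark tissue outside the neural retina alone. The macrophage list includes microglia, and the pigment epithelium list holds visual cycle genes and shares RLBP1 with Müller glia. The summed levels of pigment epithelium, blood, endothelium, fibroblasts, macrophages, myelin and muscle overlapped between the times. Those of lens (20.9 to 23.3 against 24.7 to 36 CPM), lymphocytes (40.8 to 44.9 against 45.1 to 51.4 CPM) and pecten and choroid (1920 to 1990 against 2020 to 2101 CPM) were lower in all CT20 libraries. The exact two-sided permutation p was 0.1 for each, the smallest possible. Few genes had at least 1 CPM among those of lens (3 of 15) and lymphocytes (4 of 18). The lens gene CRYGS, the lymphocyte gene CD8A and the globin genes HBG2, HBE and HBZ were at 0 in all 6 libraries. The part of these cells in the results was not tested.

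The direction of the called transcripts was also read in libraries of other times. The mean of CT16 and CT0, the times on either side of CT20, was set against the mean of CT4 and CT12, on either side of CT8. None of these 12 libraries enters the difference between CT20 and CT8, but they share the fit that set its SE and so its calls. Of all tested transcripts, 50.2% had the higher mean around CT20. Of the 58 transcripts higher at CT20, 55 had a higher mean around CT20 and 14 were called higher, against 0.107% of all tested transcripts. Of the 79 lower, 78 had a lower mean around CT20 and 30 were called lower, against 0.234%. None was called in the opposite direction. BLIMP-1 fell by 1.0 ± 0.08 in this comparison (edgeR adjusted p = 2.2e-05), ARNTL by 0.67 ± 0.06 (1.0e-04) and NDRG1 by 0.54 (1.5e-05), while PER3 rose by 0.65 (0.0012), NR2E3 by 1.12 (0.0205) and RBP4 by 0.60 (0.028). AANAT (0.17) and PDE6C (0.23) had the same direction but were not called. The 3 rises with another direction were HCCS, GPR103 and C18ORF22, and the fall was that of the scaffold gene MAGI1, named after its values were seen.

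**Figure D4:**
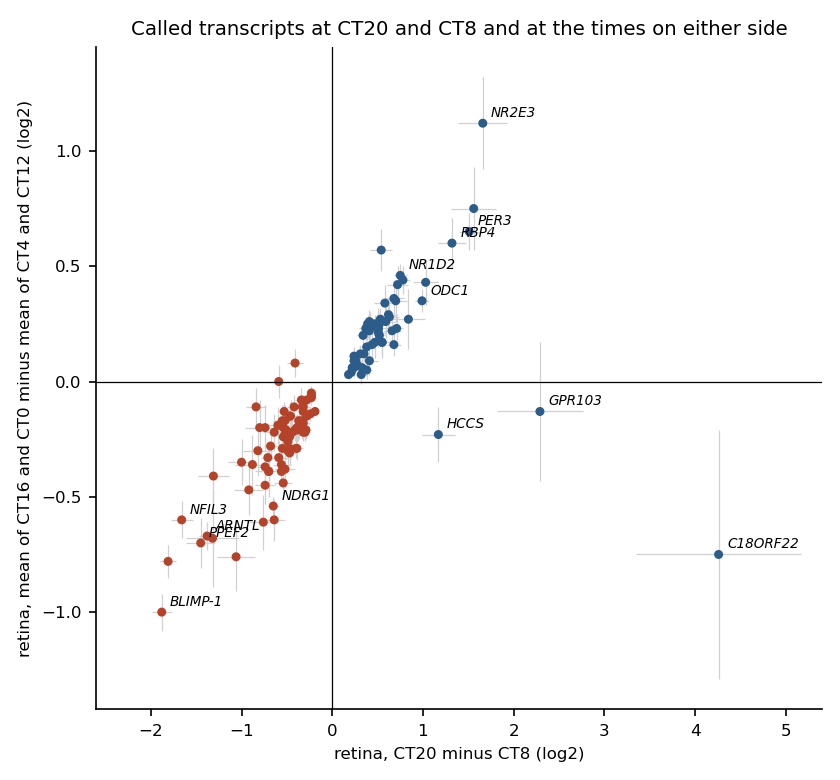
Difference between CT20 and CT8 in the retina (log2, horizontal axis) against the difference between the mean of CT16 and CT0 and the mean of CT4 and CT12 (log2, vertical axis) for the 137 called transcripts, with SE bars. Blue points (higher at CT20) lie above 0 in 55 of 58 cases, and red points (lower at CT20) lie below 0 in 78 of 79.

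The phase of the called transcripts was described from their means over the 6 times. Of the 58 higher at CT20, 34 had their highest mean at CT0 and 19 at CT20, and their lowest mean was at CT8 in 34 and at CT12 in 22. Of the 79 lower at CT20, 47 were highest at CT8 and 30 at CT12, and 58 were lowest at CT0 and 18 at CT20. The contrast itself favours rises that peak near CT20 with lows near CT8, and falls that peak near CT8 with lows near CT20. Between CT16 and CT4, which are also 12 h apart, 20 of the 58 and 24 of the 79 kept their direction. There 4 of the 58 were called higher at CT16 and 16 lower, and 5 of the 79 were called lower and 14 higher, against 0.508% higher and 1.02% lower of all tested transcripts. Directions between CT16 and CT4 and times of the highest and lowest mean were not counted over all tested transcripts.

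The same times were compared in the pineal gland, from libraries of 3 pooled glands. There 1017 of 16070 tested transcripts (6.33%) were called. Of the 55 retina rises tested in the pineal gland, 23 were called higher there (3.24% of all tested) and 1 lower, and of the 78 retina falls tested, 17 were called lower (3.09%) and 4 higher. ARNTL fell by 1.37 ± 0.11 in the pineal gland and NFIL3 by 1.45, close to their retina values, with tissue differences (retina minus pineal) of -0.01 ± 0.15 and -0.20 that were not called. PER3 rose by 1.19 in the pineal gland, with a tissue difference of 0.33 that was not called.

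A test of the tissue difference itself called 369 of 16831 transcripts (2.19%). AANAT rose by 1.66 in the pineal gland and by 0.55 in the retina, and that difference was called (-1.10, edgeR adjusted p = 1.9e-06). NR1D2 rose by 2.09 and PDE6C by 2.29 in the pineal gland, both more on the log2 scale than in the retina (edgeR adjusted p for the difference 0.00118 and 2.7e-04). PDE6C was low in the pineal gland, with means of 9.73 CPM at CT8 and 47.5 CPM at CT20, against 590 and 965 CPM in the retina. CRY1 fell further in the pineal gland (-1.59) than in the retina (edgeR adjusted p = 1.2e-07). PER2 fell in the pineal gland (-1.28, edgeR adjusted p = 5.6e-05) and was not called in the retina, and the tissue difference was called (edgeR adjusted p = 9.7e-06). For BLIMP-1 the pineal value, 0.67 ± 0.31, was not called, and the difference was (edgeR adjusted p = 9.9e-06). BLIMP-1 was low in the pineal gland, with means of 2.51 CPM at CT8 and 4 CPM at CT20. GNB3 rose by 2.46 in the pineal gland and differed by -0.05 in the retina (edgeR adjusted p for the difference 6.6e-12). Its means were 50.5 CPM at CT8 and 278 CPM at CT20 in the pineal gland, against 2248 and 2178 CPM in the retina. RHBDF2, an inactive rhomboid protease gene, the ETS repressor gene ETV3 and the DNA repair gene FANCM likewise rose in the pineal gland (2.28, 1.31 and 1.46) and were not called in the retina (0.13 ± 0.18, -0.06 ± 0.10 and 0.02 ± 0.07). On chromosome 18 RHBDF2 (4357425 to 4364977) lies beside AANAT (4365296 to 4369121). Whether the counts of these 2 neighbours are independent was not tested.

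In all, 5 transcripts were called in opposite directions in the 2 tissues, with the difference called. They were 4 of the 78 retina falls tested in the pineal gland and 1 of the 55 rises. Of all transcripts tested there, 3.24% were called higher and 3.09% lower, so the number is no result about the members. CITED3, NDRG1, G0S2 and LBH fell in the retina and rose in the pineal gland, where CITED3 rose by 0.71, NDRG1 by 0.99, G0S2 by 1.65 and LBH by 1.66. LBH, a transcription cofactor gene named after its values were seen, had 1175, 1076 and 1194 CPM at CT20 and 1641, 1459 and 1469 CPM at CT8 in the retina, with no overlap, and fell by 0.41 ± 0.06 there (edgeR adjusted p = 0.00411). SLC24A2 rose in the retina and fell in the pineal gland (-0.72, edgeR adjusted p = 8.8e-04). With the 6 retina libraries fitted alone, the retina calls of G0S2 and SLC24A2 were lost (edgeR adjusted p = 0.0527 for each). The SLC24A2 call was also lost without CT20 replicate 2 or 3 or CT8 replicate 1 or 2. The edgeR adjusted p of the tissue difference was 2.3e-09 for CITED3, 6.6e-12 for NDRG1, 3.1e-09 for G0S2, 1.3e-06 for LBH and 5.8e-06 for SLC24A2.

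**Figure D5:**
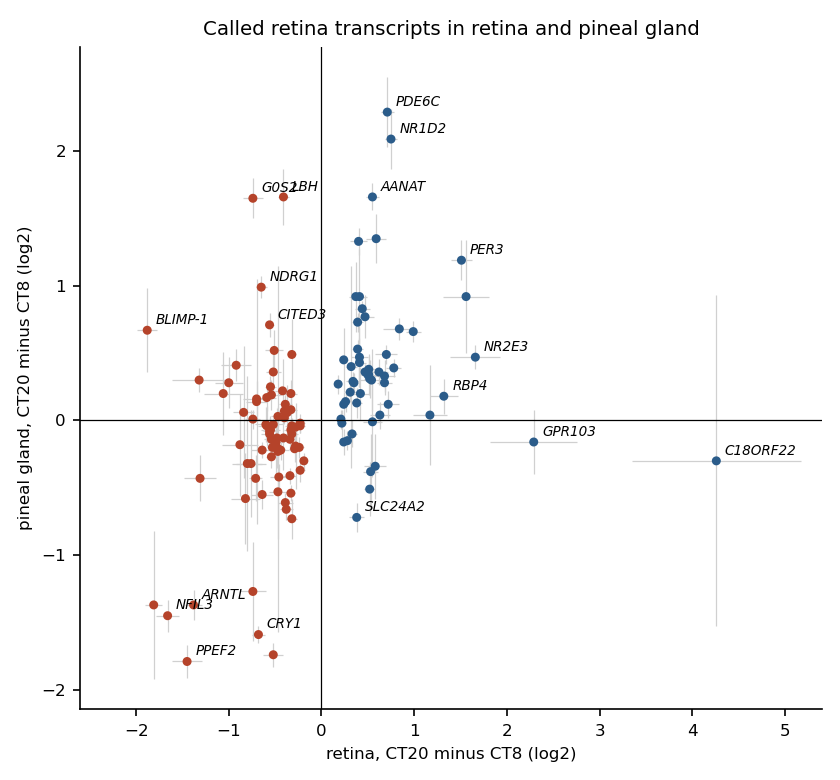
Difference between CT20 and CT8 in the retina (log2, horizontal axis) against the same difference in the pineal gland (log2, vertical axis), with SE bars, for called retina transcripts tested in both tissues. ARNTL, NFIL3, PPEF2 and CRY1 lie low in both tissues, PER3 and NR1D2 high in both, and G0S2, LBH, NDRG1 and CITED3 are lower at CT20 in the retina and higher in the pineal gland.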

How the data were processed

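Per the labels' protocols, total RNA was isolated with TRIzol, cleaned with an RNeasy kit and built into Illumina libraries. Per the submitters' processing notes, Trimmomatic, TopHat and Cufflinks were used, with no versions given. Genome build and strandedness are not given in the sources used here. The authors deposited estimated counts per Ensembl transcript, which need not be whole (68.1% of values were), and FPKM, which the authors normalized by transcript length and library size. Both tables hold 23352 transcripts of 17934 genes. Reads of a gene were shared out among its transcripts by estimation, so values of single transcripts, of close copies and of overlapping antisense genes are uncertain. Gene names are Ensembl's. Of the transcripts, 6264 matched a RefSeq symbol (GRCg7b table) by accession, 57 unnamed transcripts were named that way or from the description, and 100 whose Ensembl name belongs to another RefSeq gene took the RefSeq symbol.

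Counts were rounded and fitted with edgeR 4.0.16 (TMM, filterByExpr by time, quasi-likelihood F test) in R 4.3.3 over all 18 retina libraries with a mean per time. The SE is the difference over the square root of F, and the Benjamini-Hochberg adjustment ran over the whole table, with calls at an adjusted p under 0.05. Sharing 1 fit, CT16 was set against CT4, and CT16 with CT0 against CT4 with CT12, the latter added after the data were seen. The pineal comparison used the 18 pineal libraries and the tissue difference all 36. Library sums of marker lists were compared with exact permutation tests. Alternatives were DESeq2 1.42.0, limma 3.58.1 on log2(FPKM + 0.1) and log2(FPKM + 1), size factors, no filter, a replicate block, other sets of libraries, counts summed per gene, and leaving out each library. Plots used Python 3.11.15 and matplotlib 3.10.9.

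Named are all tested clock and melatonin genes, the 12 largest called rises and falls (mean of at least 1 CPM over the 6 libraries, groups apart), the 6 smallest p in each direction, as many as 3 called genes from every other list and the 8 smallest p of the tissue difference. Some genes within the rule and the marker lists are not reported here. Placeholder names were passed over, and the most counted transcript stands for a symbol in a list. MEF2D, MAGI1, LBH, the unnamed transcript and the genes under other observations lie outside the rule. Members and lists were chosen with earlier results of these data known.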

Additional observations from a re-analysis of the deposited data

Results flagged for a closer look

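The difference between CT20 and CT8 was not the same in retina and pineal gland for 369 of 16831 transcripts. Among the named genes, the retina value was the lower of the 2 on the log2 scale for BLIMP-1 (-2.53), GNB3 (-2.5), G0S2 (-2.38), RHBDF2 (-2.13), NDRG1 (-1.63), MYCL1 (-1.61), PDE6C (-1.57), FANCM (-1.44), ETV3 (-1.36), NR1D2 (-1.33), PTPDC1 (-1.32), OTUD1 (-1.28), CITED3 (-1.26), AANAT (-1.10), FBXL21 (-0.72) and GNB1 (-0.48). It was the higher for GPR103 (2.47), PER2 (1.38), NR2E3 (1.21), RBP4 (1.15), SLC24A2 (1.11), CPLX4 (1.05), CRY1 (0.91), ASMT (0.70), CNGA3 (0.60) and ORAI2 (0.40). Each value is the retina difference minus the pineal difference and has an edgeR adjusted p under the threshold in the test of the difference.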

How the results depend on the processing

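Of the 42 named calls, 40 kept their direction under all alternatives. The exceptions, with counts summed over all transcripts of the gene, were HCCS (-0.05) and C18ORF22 (-0.20). The counts of calls, 58 higher and 79 lower, became 124 and 147 with DESeq2 and 30 and 38 with the 6 libraries alone. Summing counts per gene gave 97 higher and 104 lower. Leaving out 1 library gave 32 to 51 higher and 39 to 54 lower. The 369 tissue differences became 619 with DESeq2, 222 with the 12 libraries of these times alone and 280 to 407 with 1 library left out. The cause was not tested. Of the named calls, 21 held in every alternative run. GPR103 and C18ORF22 have no DESeq2 adjusted p.

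Same-numbered CT20 and CT8 libraries had correlated deviations of only 0.0297 to 0.0365, under the 0.1 set for pairing, although each CT20 library correlated best with its own number. With the replicate block there were 56 higher and 72 lower calls, 118 of them shared with the 137.

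With 5631675 to 8122277 counts per library, MEL1B had means of 1.38 CPM at CT20 and 1.12 CPM at CT8. Its difference of 0.30 ± 0.41 was not called, and the part of sequencing depth in this was not tested.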

Other observations

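Some further called genes act on sterols and lipids. They were picked after their values were seen, so they are no tested group, the lipid gene PNPLA1 rose (1.03 ± 0.14, edgeR adjusted p = 0.0011), and none of the 20 tested genes of the cholesterol synthesis list was called. The sterol exporter gene ABCG1 had 89.2, 108 and 107 CPM at CT20 and 149, 150 and 143 CPM at CT8, and fell by 0.54 ± 0.06 (edgeR adjusted p = 2.4e-04). Its paralog ABCG4 fell by 0.44 ± 0.09 (edgeR adjusted p = 0.0207). The oxysterol-binding protein gene OSBPL1A fell by 0.56 ± 0.07 (edgeR adjusted p = 3.7e-04), and DGAT2, the last enzyme of triglyceride synthesis, fell by 0.59 ± 0.10 (edgeR adjusted p = 0.00545). BCDO2, which cleaves carotenoids, fell by 0.33 ± 0.07 (edgeR adjusted p = 0.0476).

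Further photoreceptor genes, chosen in the same way, moved in both directions. RP1, an outer segment microtubule protein, had 285, 290 and 277 CPM at CT20 and 188, 207 and 200 CPM at CT8, and rose by 0.52 ± 0.06 (edgeR adjusted p = 3.0e-04). RGS9BP, the membrane anchor of the transducin shutoff complex, rose by 0.41 ± 0.08 (edgeR adjusted p = 0.0217) and the exchanger gene SLC24A4 rose by 0.51 ± 0.08 (edgeR adjusted p = 0.00349). Of TULP1, a transport protein of photoreceptors, 2 transcripts fell by 0.70 ± 0.11 and 0.76 ± 0.16 (edgeR adjusted p = 0.00337 and 0.0397), and the ciliary kinase gene MAK fell by 0.29 ± 0.06 (edgeR adjusted p = 0.0281). NOS2, a nitric oxide synthase gene, had 37.6, 36 and 35.3 CPM at CT20 and 59.5, 53.4 and 51.8 CPM at CT8 and fell by 0.60 ± 0.12 (edgeR adjusted p = 0.0246).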
